A study of Rattus norvegicus with 8 samples.

Results

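Atoh7 (atonal bHLH transcription factor 7) was examined in cells of the newborn rat retina that had taken up a plasmid encoding Klf4, a zinc-finger transcription factor, or a control plasmid. Its members were the gene probes whose transcript accession, without its version, is a RefSeq transcript of rat Atoh7. There was 1 such probe, spotted 1 time per array, of 45598 gene probes (16581 genes with a symbol). All samples were retinas of Lister hooded rats taken on postnatal day 0, electroporated in vitro with 5 square pulses of 25 V and 50 ms at intervals of 950 ms, and kept as shaken explants for 39 hours. The explants were then dissociated, and the GFP-positive cells, those carrying plasmid, were sorted for RNA. The 4 control and 4 Klf4 arrays are numbered 2 to 5 in each group. Neither the promoter that drives Klf4 nor the backbone of the control plasmid is named in the labels, and they do not say whether the samples came from separate animals or electroporations. The p-values set the difference between the groups against the spread of these samples within a group, and that spread may thus be technical.

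Atoh7 is a transcription factor of the basic helix-loop-helix (bHLH) family. It is made for a short time by retinal progenitors around their last division, and retinas that lack it form almost no ganglion cells, the neurons whose axons make the optic nerve. It binds DNA at E-box motifs as a dimer with E proteins and acts above the ganglion cell factors Pou4f2 and Isl1. Pax6 and Neurog2 are known activators of the gene, Notch signalling through Hes1 holds it down, and the secreted factor Gdf11 limits the time for which progenitors express it.

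Atoh7 was higher in every Klf4 sample than in any control. The background-subtracted signal of the probe was 672, 779, 562 and 206 in control replicates 2, 3, 4 and 5. In Klf4 replicates 2, 3, 4 and 5 it was 5084, 2805, 3780 and 2554. The groups did not overlap, and the lowest Klf4 signal was 3.28 times the highest control signal. The controls were not empty of signal. Their spots were 18.9, 20.7, 17.5 and 9.11 times as bright as the local background, against 126, 77.7, 103 and 91.2 times in the Klf4 samples. On all 8 arrays the spot was well above background and carried no outlier or saturation flag, and the scanner software's own error was at most 10.3% of the signal.

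After each array's 75th percentile was subtracted, the normalised log2 signal was -2.70, -2.77, -2.74 and -3.51 in control replicates 2 to 5. It was 0.07, -0.64, -0.48 and -0.02 in Klf4 replicates 2 to 5. Control replicate 5 stood below the other 3 controls, which lay within a narrow band, and the Klf4 samples were spread more evenly. The means were -2.93 ± 0.39 in controls and -0.27 ± 0.35 in Klf4 samples (SD, n = 4 each). Atoh7 thus rose by a log2 fold change of 2.66 (SE 0.24, 95% confidence interval 2.10 to 3.22), or 6.33-fold (4.30 to 9.33). The difference was larger than the spread between replicates (limma adjusted p = 0.000957 over all features tested). An exact two-sided permutation test of the 70 ways to split the 8 arrays gave p = 0.0286, the smallest that 4 against 4 allows.

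**Figure D1:**
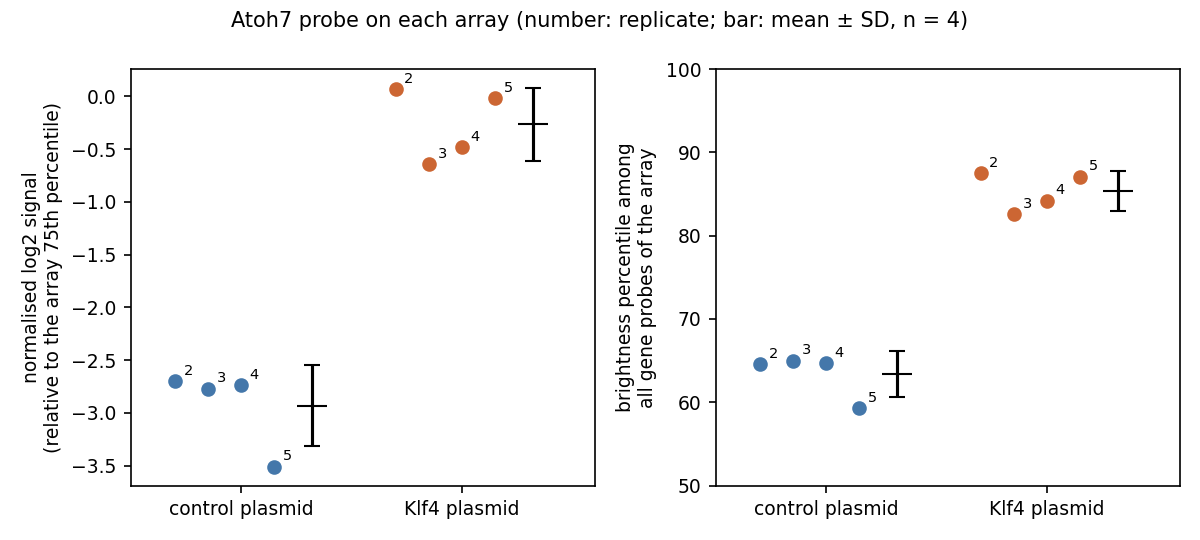
The Atoh7 probe on each array, as normalised log2 signal (left) and as its brightness percentile among all gene probes of that array (right), with points for arrays, numbers for replicates and bars for the mean ± SD (n = 4). The 4 controls lie between -3.51 and -2.70 and the 4 Klf4 samples between -0.64 and 0.07, without overlap.

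The size of the rise varied with the arrays set against each other. Over the 16 pairs of 1 control and 1 Klf4 array the log2 difference ran from 2.06 to 3.58. The 6 arrays of the first scan gave 2.38, and the second scan, which holds 1 array of each group, gave 3.50. In row 1 of the slide (replicates 2 and 3) the difference was 2.45 and in row 2 (replicates 4 and 5) 2.88. The rise was thus present in each scan and each row, and the highest of these values involve control replicate 5. All controls lay in slide columns 1 and 3 and all Klf4 samples in columns 2 and 4, so column and group cannot be told apart. Without any scaling between arrays, the mean log2 signals were 8.95 ± 0.87 and 11.74 ± 0.45 (SD, n = 4 each), a difference of 2.79. The authors' deposited log2 values for the probe were 9.09, 9.14, 9.10 and 8.52 in control replicates 2 to 5 and 12.04, 11.31, 11.53 and 11.98 in Klf4 replicates 2 to 5. In sorted cells measured as a whole, more cells with Atoh7 RNA and more Atoh7 RNA per cell cannot be told apart, and the same holds for each gene below.

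On the arrays themselves the Atoh7 probe moved from the middle of the signal range towards its bright end. Among all gene probes of an array, its brightness percentile was 64.6, 65.0, 64.7 and 59.3 in control replicates 2 to 5 and 87.5, 82.6, 84.2 and 87.1 in Klf4 replicates 2 to 5. Brightness also depends on a probe's sequence, so these percentiles place the probe and do not rank transcript abundance. Of 31072 genes and unnamed features tested, 739 were higher (2.38%) and 191 lower (0.615%) at a limma adjusted p under 0.05, 930 in either direction (2.99%). An unadjusted limma p under 0.05 was seen for 4424 of these features. All 4 Klf4 arrays lay above all 4 controls for 1393 features and below all of them for 2558. Atoh7 ranked 248 by log2 fold change and 114 by p among all features, and 158 and 73 among the 13595 with a gene symbol. A larger rise was seen for 0.795% of features. The median log2 fold change over all features was -0.16, and relative to it Atoh7 rose by 2.82. Of the 3206 features whose mean signal lay within 0.5 log2 units of that of Atoh7, 93 were higher (2.90%), and Atoh7 had the 15th largest rise of them (rank 15). Its residual SD of 0.37 was at percentile 56.6 of all features and above the median of 0.24 among those of like signal, so the call did not rest on an unusually small spread.

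**Figure D2:**
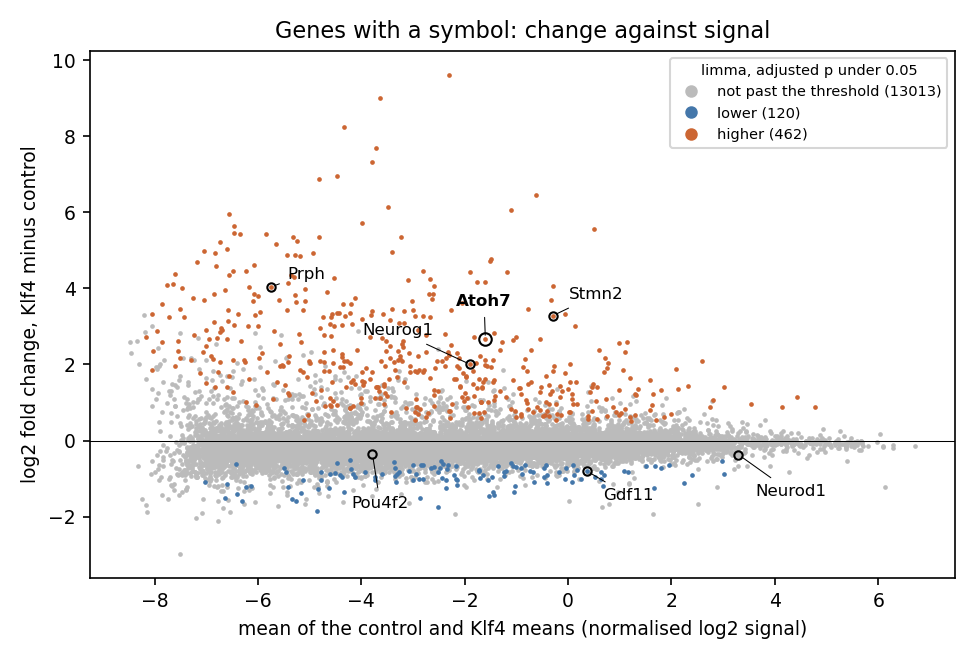
Log2 fold change (Klf4 minus control) against the mean normalised log2 signal of both groups for the 13595 genes with a symbol, coloured by the limma call. Atoh7, at 2.66, lies with the 462 higher genes, with Stmn2, Prph and Neurog1, while Pou4f2 (-0.35) and Neurod1 (-0.37) lie among genes not past the threshold and Gdf11 (-0.80) among the lower genes.

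The probe named for Klf4 itself read -4.88 ± 0.59 in controls and -4.71 ± 0.90 in Klf4 samples (SD, n = 4 each), a log2 difference of 0.18 (SE 0.47, limma adjusted p = 0.886) that turned to -0.26 without Klf4 replicate 3. The position of the probe relative to the insert of the plasmid is not given, so it does not check the labels. The 75th percentile of signal was 2354 to 5297 across arrays, 72.1% to 86.5% of spots were well above background, and the arrays numbered 4 fell outside the quality limits of the scanner software. Markers of the retina were measured in both groups, and the counts that follow stand beside 2.38% of all features higher and 0.615% lower. Counts at an unadjusted p under 0.05 stand beside 4424 of all 31072 features. All 8 retinal progenitor markers were measured and 0 passed the threshold (1 had an unadjusted p under 0.05), and their summed linear signal, relative to the array percentile, was 22.2 to 31.6 in controls and 24.9 to 27.5 in Klf4 samples. Of the photoreceptor markers, 1 of 7 measured was lower, Rbp3 (log2 fold change -1.19, adjusted p = 0.0215), and their sum was 48.1 to 68.9 and 30.6 to 57.4. All 7 had log2 fold changes below 0, with a median of -0.54 beside -0.16 for all features. An unadjusted p under 0.05 was seen for 4 of them. Of the ganglion cell markers, 1 of 7 measured was higher, Nefm, described below. The sum was 0.394 to 0.473 in controls and 0.412 to 0.790 in Klf4 samples, and Pou4f2 was well above background on all 8 arrays but Pou4f3 on none. Of the endothelial markers, 2 of 4 measured were higher, Tek (2.29) and Esam (at least 3.66-fold, adjusted p = 0.0203). Esam was well above background on 0 of 4 control arrays, so it passed the filter through the Klf4 group alone. The other 2 measured, Cdh5 (-0.11, adjusted p = 0.824) and Kdr (-0.07, adjusted p = 0.876), did not pass the threshold. Pecam1 and Cldn5, also on the list, did not pass the filter on dim probes. The sum was 31.3 to 35.8 and 28.3 to 43.3, mostly from Kdr, whose mean normalised log2 signals were 5.06 in controls and 4.99 in Klf4 samples. The part of these shifts in the results on Atoh7 was not tested. The remaining lists, of bipolar, amacrine and horizontal, Muller glia, microglia, pigment epithelium, lens and red blood cell markers, held 0 genes past the threshold, and Tyr, Tyrp1 and Hbb were not well above background on any array. Rbp3, Esam, Cdh5, Kdr, Pecam1 and Cldn5 are named after the results were seen.

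The transcription factors that act below or beside Atoh7 in ganglion cell fate did not pass the threshold in either direction. Of 21 genes listed, 17 had a named probe and 15 were measured. None of the 15 was called by limma (0 higher, 0 lower, against backgrounds of 2.38% and 0.615%). At these rates a list of this size may hold none. An unadjusted p under 0.05 was seen for 5 of them, beside 4424 of all 31072 features. The median log2 fold change of the 15 was -0.26, beside -0.16 for all features. Pou4f2, the POU factor needed for ganglion cell differentiation and axon growth, had normalised log2 signals of -3.48, -3.88, -3.72 and -3.36 in control replicates 2 to 5. It had -4.01, -4.00, -3.96 and -3.85 in Klf4 replicates 2 to 5. The groups overlapped, the log2 fold change was -0.35 (SE 0.14, adjusted p = 0.323), and another Pou4f2 probe gave 0.11. Isl1, the LIM-homeodomain partner of Pou4f2, varied far more between arrays of a group than between the group means. Its signals were -5.66, -3.50, -4.95 and -6.29 in controls and -5.98, -3.86, -4.58 and -5.89 in Klf4 samples, in the order of replicates 2 to 5. Replicate 3 was the highest and replicate 4 the next in both groups. The log2 fold change was 0.02 (SE 0.68, adjusted p = 0.992). That SE takes no account of the replicate numbers, so it includes this shared order. Eya2, a transcriptional coactivator of the Eya family, had the largest positive value of the list at 0.85 (SE 0.21, adjusted p = 0.0823). It passed the threshold without Klf4 replicate 4 (1.01, adjusted p = 0.0135) and in 7 of 25 alternatives in all. Onecut1 (-0.52) and Isl2 (-0.46) had the largest negative values, with adjusted p of 0.453 and 0.320. Without Klf4 replicate 4 the list held 1 higher and 1 lower gene. With array weights, where 1678 of all features were higher and 1705 lower, it held 1 higher and 3 lower. Pou4f3 and Irx4 did not pass the filter on dim probes, and Pou4f1, Eomes, Onecut2 and Klf7 were not analysed here.

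Several genes of the neuronal cytoskeleton and of axons rose. Of 25 ganglion cell axon and marker genes, 19 were measured. Of these, 6 were higher and 0 lower, beside backgrounds of 2.38% and 0.615%, and the median log2 fold change was 0.42 against -0.16 for all features. Many of them are not specific to ganglion cells. Prph, the neuronal intermediate filament peripherin, rose by 4.04 (SE 0.51, adjusted p = 0.00434). It was well above background on only 2 of the 4 control arrays and so passed the filter through the Klf4 group alone. With probes required to be above background on all 8 arrays, which leaves Prph out, the list held 7 higher and 0 lower genes. The size of the Prph rise depended on the background correction, at 1.97 (adjusted p = 0.00567) with normexp. In the first scan alone it was 3.37 (adjusted p = 0.0182). Stmn2, a microtubule regulator of growing axons, read -2.78, -1.11, -2.22 and -1.66 in control replicates 2 to 5 and 1.54, 1.28, 0.52 and 2.01 in Klf4 replicates 2 to 5. Its groups lay apart, with a log2 fold change of 3.28 (SE 0.42, adjusted p = 0.00453). Tubb3, the neuronal beta-tubulin, read -0.81, -0.84, -0.76 and -1.39 in controls and 1.04, 0.58, 0.70 and 0.95 in Klf4 samples. As for Atoh7, control replicate 5 was the lowest array, and the log2 fold change was 1.77 (SE 0.18, adjusted p = 0.00172). These 3 calls held in every alternative that was run for them.

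The other 3 calls were less firm. Rbfox3, a splicing factor of maturing neurons, rose by 2.03 (adjusted p = 0.0286). That call was lost when any array other than control replicate 3 or Klf4 replicate 4 was left out (adjusted p 0.0733 to 0.0955). Nefm, the medium neurofilament chain, rose by 1.80 (adjusted p = 0.0259), a call lost without any 1 array other than Klf4 replicate 4 (adjusted p 0.0544 to 0.0959). A second Nefm probe gave 2.21 and passed when every probe was tested (adjusted p = 0.0396). Elavl3, a neuronal RNA-binding protein, rose by 0.99 (adjusted p = 0.0452), a call lost without any array other than control replicate 3 or Klf4 replicate 4 (adjusted p 0.103 to 0.135). It was also lost with slide row as a block (0.0709), without both arrays numbered 4 (0.0782), without the filter on dim probes (0.0816) and as the mean over probes (0.162), and a second Elavl3 probe gave 0.74 with an adjusted p of 0.401. In each of these genes and in Stmn2 and Prph, Klf4 replicate 4 was the lowest of the Klf4 samples, whereas for Atoh7 it was not. L1cam, an axonal adhesion molecule, was 2.10-fold brighter in Klf4 samples (adjusted p = 0.0621) and Gap43, a growth cone protein, 2.00-fold (adjusted p = 0.0588). L1cam passed the threshold in 11 of 25 alternatives and Gap43 in 10. Without Klf4 replicate 4 their log2 fold changes were 1.28 (adjusted p = 0.00566) and 1.14 (adjusted p = 0.0240). Rbpms, an RNA-binding protein used to mark ganglion cells, went from a log2 fold change of 0.85 (adjusted p = 0.295) to 1.21 (adjusted p = 0.00326) without that array. The other 4 Rbpms probes gave 1.08 to 1.81, and 1 of them, at 1.56, passed when every probe was tested (adjusted p = 0.0306). Without Klf4 replicate 4 the list held 9 higher genes and 1 lower. Nefl, Sncg, Thy1, Chrnb3 and Nrn1 did not pass the filter on dim probes, and Chl1 was not analysed here.

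**Figure D3:**
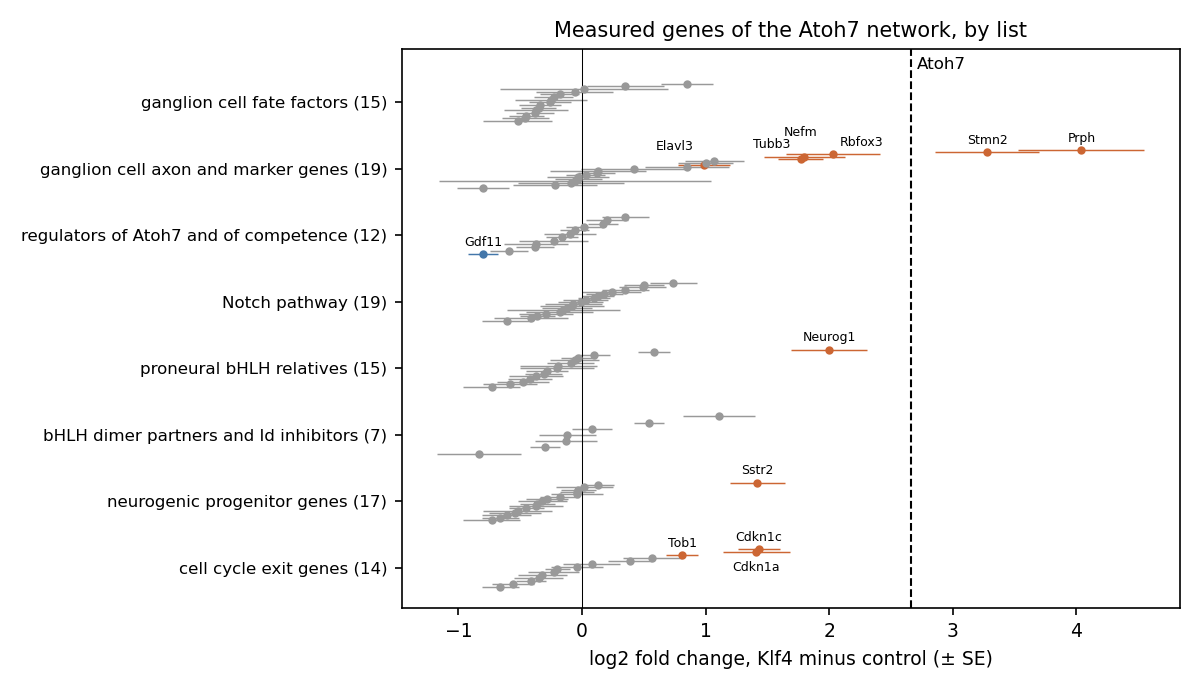
Log2 fold change (Klf4 minus control, ± SE of the fit) of each measured gene in 8 lists around Atoh7, with the number measured in brackets, higher genes in orange, lower genes in blue and the dashed line at 2.66 for Atoh7. The 15 ganglion cell fate factors lie from -0.52 to 0.85, while 6 of 19 axon and marker genes were higher, up to 4.04.

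Among genes that regulate Atoh7 or the competence of progenitors, 12 of 14 were measured, and 1 was lower and 0 higher, beside 0.615% and 2.38% of all features. Their median log2 fold change was -0.13. The lower gene was Gdf11, the secreted TGF-beta family factor that limits the period of Atoh7 expression. Its normalised log2 signals were 0.90, 0.79, 0.61 and 0.73 in control replicates 2 to 5. They were -0.15, 0.05, -0.09 and 0.02 in Klf4 replicates 2 to 5. The groups did not overlap, as for 2558 of all 31072 features in this direction. Gdf11 fell with a log2 fold change of -0.80 (SE 0.12, adjusted p = 0.00897), 1.74-fold. A second Gdf11 probe gave -0.86 (SE 0.26) with an adjusted p of 0.155 when every probe was tested, and the direction was thus shared by both probes. Pax6, the paired-homeodomain activator of Atoh7, read 0.70 ± 0.21 and 0.61 ± 0.38 (SD, n = 4 each), a log2 difference of -0.10 (SE 0.21, adjusted p = 0.861). Rax, a homeobox factor of progenitors, had -0.59 (adjusted p = 0.0953). The SoxC factors Sox4 and Sox11, which are needed for ganglion cell formation, had -0.38 and -0.37 with adjusted p of 0.283 and 0.569. Neurog2 and Meis2 were not analysed here.

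Of 22 genes of the Notch pathway, 19 were measured, with 0 higher and 0 lower by limma, beside 2.38% and 0.615% of all features. At these rates a list of this size may hold none. There were 5 at an unadjusted p under 0.05, beside 4424 of all 31072 features, and the median log2 fold change of the list was -0.01. Hes1, the bHLH repressor of Atoh7, read -2.57, -2.43, -2.45 and -2.06 in control replicates 2 to 5 and -1.80, -2.03, -2.45 and -1.80 in Klf4 replicates 2 to 5. The groups overlapped, with a log2 fold change of 0.35 (SE 0.19, adjusted p = 0.451). Hes5, a second Notch effector, had -0.41 (SE 0.30, adjusted p = 0.585), and Klf4 replicate 4, at -0.42, lay below the other Klf4 samples (0.74 to 0.84). The largest values of the other genes were 0.74 for Heyl, a Hes-related repressor (adjusted p = 0.0941), -0.61 for the ligand Dll1 (adjusted p = 0.189) and 0.50 for the ligand Jag1 (adjusted p = 0.194). With array weights, a setting in which 1678 of all features were higher and 1705 lower, the Notch list held 3 higher and 0 lower genes. These were Hes1 (0.52, adjusted p = 0.0153), Heyl (0.73, adjusted p = 0.0253) and Jag1 (0.51, adjusted p = 0.0213). Hes6 and Maml1 were not analysed here.

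Among the proneural bHLH relatives of Atoh7, 1 gene rose. Of 17 listed, 15 were measured, and 1 was higher and 0 lower, beside 2.38% and 0.615% of all features, so the count is near the background. The median log2 fold change was -0.20, beside -0.16 for all features. At an unadjusted limma p under 0.05 there were 6 of the 15, beside 4424 of all 31072 features. The gene was Neurog1, a proneural factor of sensory neuron lineages. Its normalised log2 signals were -2.88, -2.75, -2.36 and -3.56 in control replicates 2 to 5. They were -0.95, -0.97, -0.26 and -1.37 in Klf4 replicates 2 to 5. The groups did not overlap, as for 1393 of all 31072 features in this direction. Neurog1 rose by 2.00 (SE 0.31, adjusted p = 0.0112), a call kept in all 25 alternatives. Atoh1, the atonal family factor of hair cells and cerebellar granule cells, had -0.20 (adjusted p = 0.784) and Atoh8 -0.58 (adjusted p = 0.280). Neurod1, of the photoreceptor and amacrine lineages, had -0.37 (adjusted p = 0.510). Ptf1a, the amacrine and horizontal cell factor, had 0.58 with groups that did not overlap, but an adjusted p of 0.0578. It passed the threshold in 9 of 25 alternatives. Olig2 had -0.73 (adjusted p = 0.177), and -0.91 (adjusted p = 0.0370) without Klf4 replicate 4, and passed in 2 of 25 alternatives. Neurod6 did not pass the filter on dim probes.

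The partners and inhibitors of bHLH dimers were all measured, and 0 of 7 passed the threshold by limma. An unadjusted p under 0.05 was seen for 4 of them, beside 4424 of all 31072 features. With 2.38% of all features higher and 0.615% lower, so short a list may hold none. Tcf3, which encodes the E proteins E12 and E47, had a log2 fold change of 0.54 (SE 0.12, adjusted p = 0.0590). It passed without Klf4 replicate 4 (0.59, adjusted p = 0.0214) and in 9 of 25 alternatives in all. The Id proteins bind E proteins and keep them from DNA. Id1 had 1.11 (SE 0.29, adjusted p = 0.0967), with 1.39 (adjusted p = 0.0141) without Klf4 replicate 5, whereas Id3 had -0.83 (SE 0.34, adjusted p = 0.320). Id1 passed in 5 of 25 alternatives and Id3 in 1.

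Of the genes of the neurogenic progenitor state, in which Atoh7 is normally made, 1 rose. Of 22 listed, 17 were measured, and 1 was higher and 0 lower, beside 2.38% and 0.615% of all features, a share of the list near the background. The median log2 fold change was -0.32, beside -0.16 for all features. At an unadjusted limma p under 0.05 there were 7 of the 17, beside 4424 of all 31072 features. The higher gene was Sstr2, a somatostatin receptor, at 1.42 (SE 0.22, adjusted p = 0.0113). Gadd45g, a growth arrest and stress response gene, had -0.66 (SE 0.15, adjusted p = 0.0547), and -0.72 (adjusted p = 0.0306) without Klf4 replicate 4. It passed the threshold in 8 of 25 alternatives. Insm1, Srrm4 and Foxn4 were not analysed here. Of 14 genes of cell cycle exit, all were measured, and 3 were higher and 0 lower, beside 2.38% and 0.615% of all features. The median was -0.12, beside -0.16 for all features. The log2 fold change of Cdkn1c, the cyclin-dependent kinase inhibitor p57, was 1.43 (SE 0.17, adjusted p = 0.00366). That of Cdkn1a, the inhibitor p21, was 1.41 (adjusted p = 0.0318), a call lost without any 1 array other than Klf4 replicate 4 (adjusted p 0.0594 to 0.112). It was also lost with slide row as a block (0.0525), without the filter on dim probes (0.0553) and as the mean over probes (0.140), and a second Cdkn1a probe had an adjusted p of 0.356. Tob1, an antiproliferative gene, rose by 0.81 (adjusted p = 0.0145), a call lost without control replicate 3, Klf4 replicate 2 or Klf4 replicate 3 (adjusted p 0.0547 to 0.0637). Gadd45b (0.57) and Cdkn2c (-0.56) did not pass (adjusted p 0.328 and 0.153).

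The genes whose profile over the 8 arrays was most like that of Atoh7 were sought by the root mean square (RMS) difference between log2 profiles, each centred on its own mean. Of 13495 genes with a symbol and a value on every array, 38 lay within 0.4 log2 units of Atoh7 and 101 within 0.5, and the median was 1.45. The 10 nearest, at RMS 0.24 to 0.31, were Selenom, an endoplasmic reticulum selenoprotein, Rarg, a retinoic acid receptor, Arrb1, an arrestin, the adaptor Stap2, the ubiquitin ligase Trim47, the keratin Krt19, the muscarinic receptor Chrm4, the receptor tyrosine kinase Tek, the bHLH factor Tal1 and the calcium-binding protein Hrc. Their likeness used the difference between the groups, so all of them rising is part of the choice. Their log2 fold changes ran from 2.18 (Tal1) to 2.90 (Trim47). None of the 10 is in a list of ganglion cell genes used here. Those lists are short, with 15 fate factors and 19 axon and marker genes measured, beside 13495 genes compared. So few as 10 genes may thus hold none. Krt19, for example, read -0.16 ± 0.36 in controls and 2.43 ± 0.39 in Klf4 samples, and Rarg -3.18 ± 0.35 and -0.46 ± 0.40 (SD, n = 4 each). Tal1 and Hrc were well above background on 2 of 4 control arrays and so passed the filter through the Klf4 group alone. With normexp background correction their log2 fold changes were 1.03 and 1.15, still past the threshold. The other 2 Arrb1 probes gave 0.22 and -0.04 and disagree with the 2.64 of the probe used, and the mean over its probes gave 0.94.

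**Figure D4:**
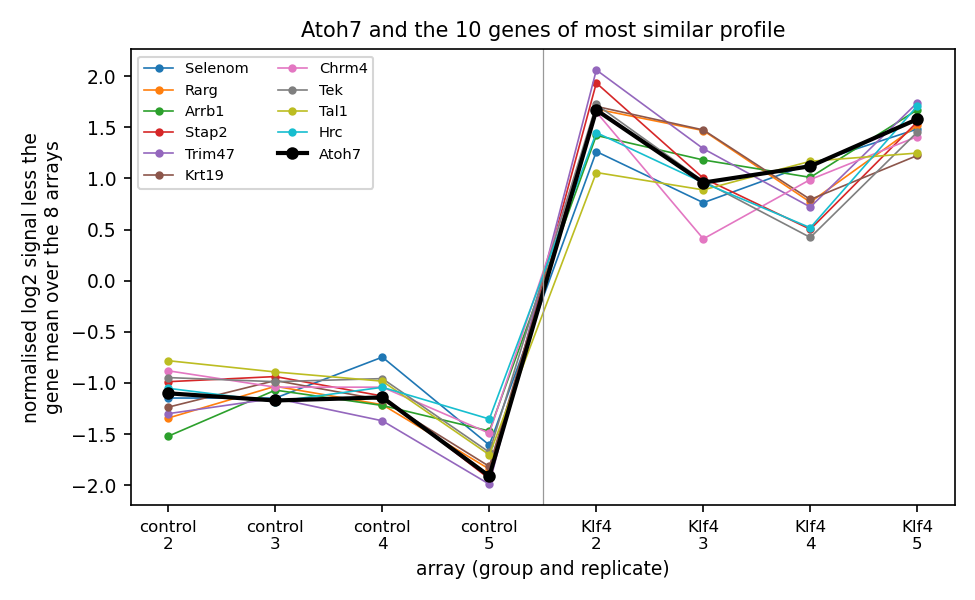
Normalised log2 signal, less each gene's mean over the 8 arrays, for Atoh7 (black) and the 10 genes with the most similar profile, in order of group and replicate. Atoh7 and the other genes were lowest in control replicate 5, except Arrb1, which had its lowest value in control replicate 2.

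The 5 genes with a probe on each side of Atoh7 in the RefSeq gene table were examined. Of the 9 that were measured 0 were called by limma, beside 2.38% of all features higher and 0.615% lower, so that none may be found among so few. An unadjusted p under 0.05 was seen for 1 of the 9, beside 4424 of all 31072 features. On the side of Herc4, which is next to Atoh7, the log2 fold changes were 0.02 for Herc4, -0.24 for Dnajc12, 0.01 for Lrrtm3, -0.36 for LOC102552513 and 0.27 for LOC102552132. On the other side they were -0.47 for Rufy2, -0.06 for Hnrnph3, 0.10 for Slc25a16 and -0.54 (adjusted p = 0.103) for LOC100910945, and Pbld1 did not pass the filter. No other gene of the table overlaps the Atoh7 model.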

How the data were processed

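Per the file headers, 1 slide of Agilent single-colour arrays (Cy3) was read with Feature Extraction 10.7.3.1. That software subtracted the background from the deposited intensity values, which are unscaled between arrays. Its deposited flags (unit other) mark control, well above background, saturated and outlier spots. The authors also deposited log2 values for 45735 rows, by steps not given in the sources used here. Every column had a median of 7.54 and matched its own array best (r across probes 0.994 to 1.000), so they are log2 signals with like quantiles, not centred by gene, in the direction of the signals.

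Of 62976 spots per array, 58717 were gene spots for 45598 probes. Outlier spots (324 to 421 per array) were left out, none was saturated, spots of a probe were averaged as log2, and each array's 75th percentile over gene spots was subtracted. Probes well above background on at least 3 of 4 arrays of a group were kept, and the kept probe with the highest mean stood for a gene. A fold is given as a bound ("at least") where a group was not well above background on any array. For each array of that group the fold is taken against the probe's own signal or the dimmest signal flagged well above background, whichever is higher, and it holds for this processing. Accessions without versions were matched to the RefSeq gene table of GRCr8: 21109 probes had 1 symbol, 0 several and 24489 none. The headers name build rn4, so that table was used for names and neighbours only. Groups were compared with limma 3.58.1 (lmFit, eBayes) in R 4.3.3, two-sided, no covariates, with Benjamini-Hochberg adjustment over all features and a threshold of 0.05. The fit was tested on simulated data, where 0.00% of changes of 0.5 log2 units, 36.0% of changes of 1 and 68.0% of changes of 2 were called. A gene not past the threshold may thus still have changed. Figures used matplotlib 3.10.9 in Python 3.11.15.

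The members, lists, tests and alternatives were chosen with earlier results of these data known. Of each list, the text names the genes past the threshold, the 3 others with the largest change and Pou4f2, Isl1, Pax6, Neurog2, Hes1, Hes5 and Neurod1, whatever their values. Some items the rule names are not reported here. It also names Klf4, the 10 genes of nearest profile and 5 neighbours on each side. Alternatives covered background correction, scaling, filters, probe choice, weights, scan, slide row, replicate number and left-out arrays. The number of arrays limits the precision. Arrays of a group correlated at r = 0.958 to 0.990, and none were identical.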

Additional observations from a re-analysis of the deposited data

Results flagged for a closer look

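Among the named genes, 8 groups of 4 arrays held an array that stood apart from the other 3 by Dixon's test, of 120 groups tested. At its 95% critical value, chance alone marks about 1 group in 20. Atoh7 is one of them, and the array is control replicate 5, at a normalised log2 signal of -3.51 beside -2.77 to -2.70 in the other controls. Without that array the Atoh7 difference was 2.47, and the call held (limma adjusted p = 0.00161).

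The same array was low for Tubb3, at -1.39 beside -0.84 to -0.76, and for Tek, at -4.76 beside -4.07 to -4.03. It was high for Pax6, at 1.02 beside 0.58 to 0.61. Control replicate 5 was read in the second scan together with Klf4 replicate 5.

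Klf4 replicate 4 stood apart for 4 genes. It was low for Cdkn1a, at 0.57 beside 1.45 to 1.53, for Hes5, at -0.42 beside 0.74 to 0.84, and for Rufy2, at -2.59 beside -1.65 to -1.48. It was high for Slc25a16, at -1.44 beside -2.50 to -2.33. This array was outside the scanner software's quality limits and had the lowest share of spots well above background, 72.1%. For Atoh7 it lay within the range of the other Klf4 samples. The part of scan, quality or detection in these values was not tested.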

How the results depend on the processing

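The Atoh7 rise kept its direction and its call in all 25 alternatives, at log2 fold changes of 2.38 to 2.80 and adjusted p of 7.15e-05 to 0.0143. Normexp correction gave 2.44, and used the median spot and background signals, since the files hold no mean spot signal. Subtracting the 75th percentile over probes, an alternative chosen after seeing the data, gave 2.76. Leaving out 1 array gave 2.47 to 2.79, and the exact permutation p was 0.100, the smallest 3 against 3 allows, both without the arrays numbered 4 and in the first scan alone. With the replicate block, Atoh7 was at 2.66 (SE 0.26, adjusted p = 0.0143), and 569 features were higher and 108 lower. The numbers were not taken to pair the samples. Deviations of same-numbered arrays correlated at 0.06 to 0.55, and 6 of 8 arrays correlated best with their own number.

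The counts of 739 higher and 191 lower depended more on the setting. Higher and lower were 1678 and 1705 with array weights (49.6% higher, against 79.5%), and 414 and 50 in the first scan alone. Lower counts were 127 with the array median, 96 without a filter on dim probes, 309 with trend and robust variance and 354 with scan as a block. Leaving out 1 array gave 428 to 1175 higher and 51 to 491 lower, the highest of both without Klf4 replicate 4, and 91.0% higher without control replicate 2. The median log2 fold change of all features was -0.08 with the array median and -0.06 after quantile normalization. The first scan alone and the replicate block, like single left-out arrays, ended the calls of Cdkn1a, Elavl3, Nefm, Rbfox3 and Tob1, and the first scan alone that of Stap2. Slide row as a block, no filter on dim probes and the mean over probes ended those of Cdkn1a and Elavl3. Higher ganglion cell axon and marker genes numbered 3 to 9, and lower ones 0 to 1.

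Some values not past the threshold changed sign. Isl1 (0.02) was at 0.00 with normexp, -0.20 with weights, -0.09 without both arrays numbered 4 and -0.10 in the first scan, and -0.38 to 0.56 with 1 array left out. Pax6 (-0.10) was at 0.10 with weights, 0.06 without both arrays numbered 4 and -0.21 to 0.08 with 1 left out. Hes5 (-0.41) was at 0.02 with weights. Klf4 (0.18) was at -0.26 to 0.45 with 1 array left out. LOC102552132 (0.27) was at -0.04 with normexp, -0.15 with weights and -0.05 in the first scan alone, Lrrtm3 (0.01) at -0.15 with normexp and in the first scan alone, and Hnrnph3 (-0.06) at 0.03 with the array median and 0.04 with the percentile over probes. With weights and without both arrays numbered 4, Herc4 (0.02) was at -0.07 and -0.11 and Slc25a16 (0.10) at -0.11 and -0.17. With 1 array left out, Herc4 was at -0.08 to 0.08, Slc25a16 at -0.14 to 0.21, LOC102552132 at -0.23 to 0.46, Lrrtm3 at -0.36 to 0.33 and Hnrnph3 at -0.19 to 0.00. The cause was not tested.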
